A study of Mus musculus with 15 samples.

Results

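Transcripts of 10 genes of the NF-κB pathway were followed in cells of leukemic spleens, which the authors describe as malignant B-cells. Not all libraries were rich in B-cell transcripts, as described below. The genes were the 5 subunits Nfkb1, Nfkb2, Rel, Rela and Relb, the classical inhibitors Nfkbia and Nfkbie, the nuclear inhibitor-like genes Nfkbiz and Bcl3, and Tnfaip3. The rows were taken by gene symbol, for genes chosen with earlier results of these data known, and all 10 were found in both tables, among 16470 listed genes in vehicle and 16428 in ibrutinib. RNA was sequenced from cells of leukemic spleens on a C57BL/6 background that had been held for 24 h in culture with vehicle (DMSO) or with ibrutinib, a covalent inhibitor of the B-cell kinase BTK. All mice carried the Eμ-TCL1 transgene, in which B-cell regulatory elements drive the human TCL1 oncogene, and Eμ-TCL1;p53R172H/+ mice also carried a mutant Trp53 allele beside a wild-type allele. The DMSO table held 3 Eμ-TCL1 libraries (replicates 2, 3 and 4) and 5 Eμ-TCL1;p53R172H/+ libraries (replicates 1 to 5). The ibrutinib table held 3 Eμ-TCL1 libraries (replicates 1, 3 and 4) and 4 Eμ-TCL1;p53R172H/+ libraries (replicates 1, 3, 4 and 5). Cells came from mechanically disrupted spleens with no later selection of B-cells mentioned, and the ages of these mice, their number and whether each library stands for a separate mouse are not given in the sources used here. The p-values therefore measure only the spread between these libraries.

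NF-κB proteins act as dimers that wait in the cytoplasm, bound by inhibitors of the IκB family, until a receptor signal leads to loss of the inhibitor. In B-cells the antigen receptor reaches this step through BTK and the protease MALT1, and CD40 or the BAFF receptor reach a slower, noncanonical arm through Nfkb2 and Relb. Dimers that enter the nucleus switch on several of their own subunits and inhibitors, so that Nfkbia, Nfkbie and Tnfaip3 transcripts serve both as brakes and as readouts of the pathway.

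The libraries differed in the share of B-cell transcripts before any comparison of genotypes. The summed value of 10 B-cell markers was between 3822 and 6536 in 5 of the 8 DMSO libraries and between 1456 and 3804 in 4 of the 7 ibrutinib libraries. It was below 0.5 of the median of its table in the others, which are called B-cell-poor here. In DMSO these were Eμ-TCL1;p53R172H/+ replicates 1 and 2 (B-cell sums of 290 and 286) and Eμ-TCL1 replicate 2 (612). In ibrutinib they were Eμ-TCL1;p53R172H/+ replicates 1 and 3 (70.2 and 609) and Eμ-TCL1 replicate 1 (486). The mutant B-cell-poor libraries had summed values of 12 T-cell markers between 1149 and 3552, and both Eμ-TCL1 ones had summed values of 10 myeloid markers of 30748 and 21619, with erythroid sums of 17277 and 14997. All T-cell and B-cell markers were measured in both tables and none was at 0. The B-cell-rich libraries were 3 mutant and 2 Eμ-TCL1 libraries in DMSO and 2 of each in ibrutinib. Those in ibrutinib had B-cell sums of 1695 and 1456 in the mutant and 3804 and 2884 in Eμ-TCL1. Their T-cell sums were 587 and 742 in the mutant and 129 and 446 in Eμ-TCL1. Sex differed in part with genotype: the 6 Eμ-TCL1 libraries had Ddx3y at 0, whereas Ddx3y was between 75.1 and 177 in 3 of 5 mutant libraries in DMSO and between 82.1 and 137 in 3 of 4 in ibrutinib. Replicate 3 of Eμ-TCL1;p53R172H/+ had Xist of 1491 in DMSO and 1.0 in ibrutinib. Trp53 was between 26.0 and 52.3 in Eμ-TCL1 and between 52.1 and 67.0 in Eμ-TCL1;p53R172H/+ in DMSO, where reads of the mutant and wild-type alleles are not told apart. In bulk RNA, fewer B-cells and less of a transcript per B-cell cannot be told apart.

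The κB site, the DNA element read by NF-κB dimers, was searched on both strands in RefSeq promoter windows of GRCm38.p6 that run from 250 bases before to 50 bases after a gene's start. A window was given for 7 of the 10 genes, the others being Nfkb1, Nfkbiz and Relb. The κB consensus was found before the start in 5 of these 7 genes, against 5.45% of the 10768 measured genes with a window and 3.90% of all 32851 windows. In Bcl3 a match was found only after the start, and in Rela no match was found in the window. The stretches below hold matches in the genes whose levels are described next, 5′ to 3′ on the strand of the gene, with the consensus in capitals; where a stretch overlaps an annotated exon only the site and its nearest bases are shown.
Rel, chr11:23771026-23771086, minus strand: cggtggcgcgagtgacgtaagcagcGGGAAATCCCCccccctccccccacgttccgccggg
Nfkbia, chr12:55492648-55492701, minus strand: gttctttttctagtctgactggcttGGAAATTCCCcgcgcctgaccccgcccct
Nfkbie, chr17:45555569-45555628, plus strand: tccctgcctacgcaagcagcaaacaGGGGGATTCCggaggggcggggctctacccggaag
Nfkb2, chr19:46304689-46304717, plus strand: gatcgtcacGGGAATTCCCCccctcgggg
Tnfaip3, chr10:19015517-19015544, minus strand: actcacgcgGGGACACCCCggggcggga
Tnfaip3, chr10:19015411-19015431, minus strand: atttccatcGGAAATCCCCct
The Rel and Nfkb2 stretches each hold a pair of overlapping matches, which is why their capitals run on for an extra base. Nfkb2 had further, separate matches before its annotated starts, in stretches that are not shown (chr19:46304717-46304736, chr19:46305450-46305477 and chr19:46305696-46305723). The site of Nfkbia ended 20 bases before the start, that of Rel 82 bases and that of Nfkbie 97 bases. Tnfaip3 also had separate matches, which ended 3 and 116 bases before its start. A match is a run of letters and was not tested for binding.

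Levels are given as deposited, in normalized CPM (reads scaled to a common library size), and log2 changes are Eμ-TCL1;p53R172H/+ relative to Eμ-TCL1 on the log2(value + 1) scale, fitted over all genes with limma and adjusted by the Benjamini-Hochberg method. No member passed an adjusted p of 0.05 between the genotypes: 0 of 10 in DMSO, where 0.0121% of all genes (2 of 16470) passed, and 0 of 10 in ibrutinib, where the share of all genes was 0%. At an unadjusted p under 0.05, 1 member (Nfkbiz) was higher in DMSO, against 3.52% of all genes, and 0 were lower, against 4.65%. In ibrutinib 0 were higher, against 5.69% of all genes, and 3 members (Nfkb1, Nfkbia and Nfkbie) were lower, against 6.32%. Without the B-cell-poor libraries the adjusted counts stayed at 0 of 10 in both tables, where 0.0729% and 0% of all genes passed, and 3 members in DMSO and 1 in ibrutinib had an unadjusted p under 0.05, against 17.1% and 13.4% of all genes. The median log2 change of the 10 members was 0.36 in DMSO beside 0.04 over all genes, and -0.27 in ibrutinib beside -0.05. Exact permutation tests of the values, 20 in all, gave an unadjusted p under 0.05 for 1 member in DMSO, against 7.53% of all genes, and 2 in ibrutinib, against 8.1%.

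**Figure D1:**
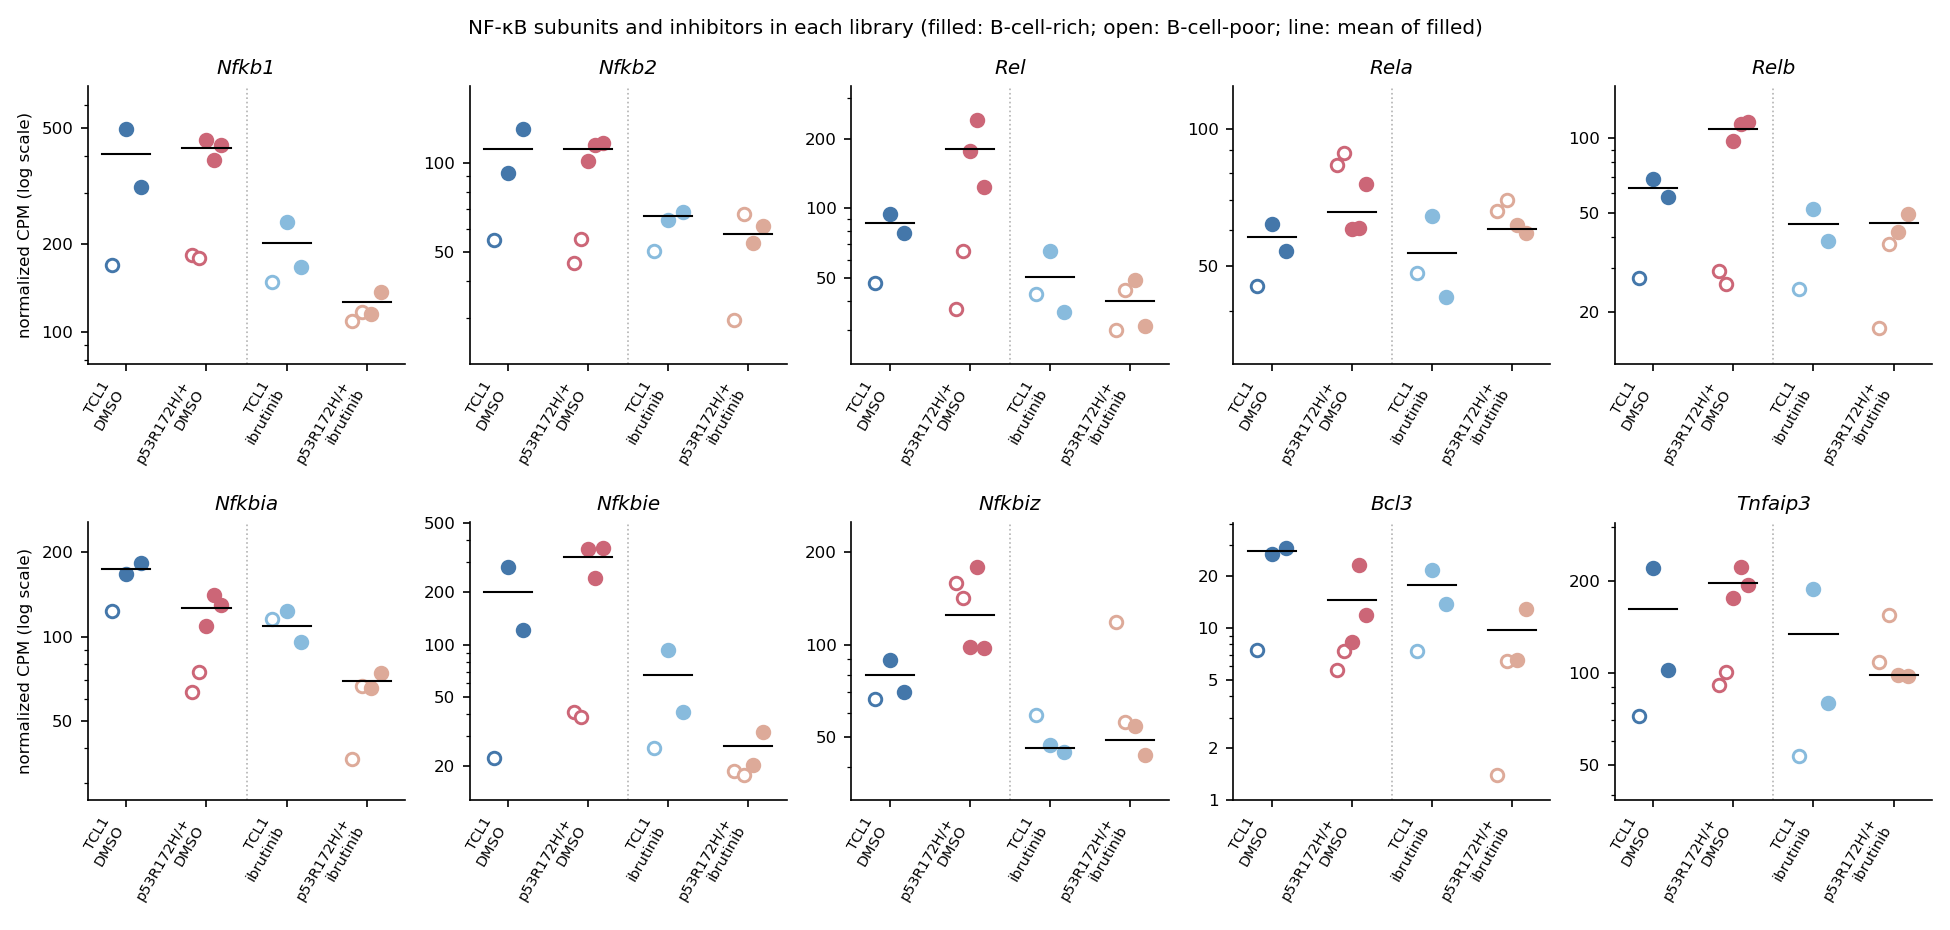
Normalized CPM (log axis) of the 10 members in each of the 15 libraries, by genotype and treatment; filled points are B-cell-rich libraries, open points B-cell-poor ones, and lines the mean of the filled points. Nfkbie ran from 22.4 to 359 in DMSO, with all 3 open points at or below 41.1, whereas Rela stayed between 45.2 and 88.7.

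Rel (chr11:23736847-23770970, minus strand, GRCm38) encodes c-Rel, the subunit most typical of lymphocytes. In DMSO it was 36.8, 65.3, 177, 241 and 124 in Eμ-TCL1;p53R172H/+ replicates 1 to 5 and 47.9, 94.2 and 78.7 in Eμ-TCL1 replicates 2 to 4. The low values on each side were the B-cell-poor libraries. Among the other libraries the lowest mutant value lay above the highest Eμ-TCL1 value, as in 16.5% of all genes. The log2 change was 0.56 (standard error, SE, 0.59, adjusted p = 0.742) over all libraries and 1.01 (SE 0.32, adjusted p = 0.24), or 2.01-fold, in the B-cell-rich ones. In ibrutinib Rel was 29.9, 44.3, 48.9 and 31.2 in the mutant and 42.6, 65.3 and 35.7 in Eμ-TCL1, with overlapping ranges and a log2 change of -0.29 (SE 0.27, adjusted p = 0.649).

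Relb (chr7:19606217-19629438, minus strand), which pairs with processed Nfkb2 in the noncanonical arm, was higher in every B-cell-rich library of DMSO than in any B-cell-poor one. It was 97.5, 114 and 116 in Eμ-TCL1;p53R172H/+ replicates 3 to 5 and 68.5 and 57.9 in Eμ-TCL1 replicates 3 and 4, whereas the 3 B-cell-poor libraries had 25.8, 27.3 and 29.2. Within the B-cell-rich libraries the log2 change was 0.78 (SE 0.15, adjusted p = 0.129). Over all libraries it was 0.39 (SE 0.61, adjusted p = 0.831). In ibrutinib the level of Relb was 17.3, 37.4, 41.9 and 49.4 in the mutant and 24.7, 52.1 and 38.6 in Eμ-TCL1, and the ranges overlapped with and without the B-cell-poor libraries (log2 changes of -0.11 and 0.02, adjusted p = 0.922 and 0.992).

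Nfkb1 (chr3:135584655-135691547, minus strand) encodes the precursor whose processed form pairs with Rela or Rel, and its genotypes overlapped in DMSO but not in ibrutinib. In DMSO its mean was 329 ± 137 (SD, n = 5) in Eμ-TCL1;p53R172H/+ and 327 ± 165 (SD, n = 3) in Eμ-TCL1, a log2 change of 0.02 (SE 0.47, adjusted p = 0.99). In ibrutinib it was 109, 117, 115 and 138 in Eμ-TCL1;p53R172H/+ and 149, 238 and 167 in Eμ-TCL1. Every mutant library lay below every Eμ-TCL1 library, as in 5.97% of all genes, and the change was -0.60 (SE 0.20, adjusted p = 0.343). The exact permutation test of the values gave a two-sided p of 0.0286, the smallest that 35 splits allow, and 8.1% of all genes had a p under 0.05. With the B-cell-poor libraries left out the ibrutinib values did not overlap either, as in 23.4% of all genes, with a log2 change of -0.66 (SE 0.25, adjusted p = 0.395). The B-cell and T-cell sums of the remaining ibrutinib libraries differed between the genotypes, and their part was not tested. The limma interaction term of Nfkb1, described below, had an unadjusted p of 0.283.

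Nfkb2 (chr19:46304320-46312385, plus strand), the noncanonical precursor, and Rela (chr19:5637483-5648130, plus strand), which encodes the main transactivating subunit of the canonical arm, overlapped between the genotypes in both tables. Nfkb2 was 86.9 ± 33.7 (SD, n = 5) in the mutant and 92.4 ± 37.2 (SD, n = 3) in Eμ-TCL1 in DMSO, and 52.9 ± 16.6 (SD, n = 4) and 60.9 ± 9.23 (SD, n = 3) in ibrutinib. Its exons share 299 bases with Psd and 531 bases with AC114539.1, both on the opposite strand, and whether reads were counted by strand is not given in the sources used here. Rela was the steadiest member, with a highest value 1.96 times the lowest in DMSO and 1.63 times in ibrutinib. It was 83.4, 88.7, 60.5, 60.7 and 75.8 in the mutant and 45.2, 62.0 and 53.9 in Eμ-TCL1 in DMSO, where both T-cell-marker-rich mutant libraries were the highest. Its log2 change there was 0.45 (SE 0.21, adjusted p = 0.632) and 0.17 (SE 0.16, adjusted p = 0.628) in the B-cell-rich libraries. In ibrutinib Rela was 66.0, 69.7, 61.7 and 59.1 in the mutant and 48.4, 64.3 and 42.8 in Eμ-TCL1, with a log2 change of 0.32 (SE 0.18, adjusted p = 0.505).

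Nfkbia (chr12:55489410-55492647, minus strand) encodes IκBα, the inhibitor that is lost first after a canonical signal and is then made anew. It was 63.5, 74.9, 109, 141 and 130 in Eμ-TCL1;p53R172H/+ and 124, 168 and 183 in Eμ-TCL1 in DMSO, where the highest mutant values passed the lowest Eμ-TCL1 value, that of the B-cell-poor replicate 2. The log2 change was -0.65 (SE 0.31, adjusted p = 0.632) over all libraries and -0.47 (SE 0.16, adjusted p = 0.257) in the B-cell-rich ones, whose groups did not overlap, as in 16.2% of all genes with the mutant lower. In ibrutinib Nfkbia was 36.5, 66.5, 65.5 and 74.1 in the mutant and 116, 123 and 95.5 in Eμ-TCL1. These groups did not overlap, in all libraries or in the B-cell-rich ones, as in 5.97% and 23.4% of all genes with the mutant lower. The log2 changes were -0.91 (SE 0.26, adjusted p = 0.305) and -0.63 (SE 0.19, adjusted p = 0.337). The B-cell-rich libraries of the genotypes differed here in their B-cell and T-cell sums, whose part was not tested. The exact permutation test over the 7 libraries gave p = 0.0286, again the smallest it can give. Nfkbia and Bcl3 were the 2 members whose log2 change was below 0 in both tables, with the B-cell-poor libraries and without them.

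Nfkbie (chr17:45555703-45563169, plus strand) encodes IκBε, an inhibitor made in B-cells that holds mainly Rela and Rel dimers, and it had the widest spread of the 10 genes in DMSO. It was 41.1, 38.6, 355, 242 and 359 in Eμ-TCL1;p53R172H/+ replicates 1 to 5 and 22.4, 278 and 122 in Eμ-TCL1 replicates 2 to 4. All B-cell-poor libraries were low, and the genotypes overlapped with or without them. The log2 change was 0.58 (SE 1.05, adjusted p = 0.855), 0.76 in the B-cell-rich libraries (SE 0.42, adjusted p = 0.439), and -0.41 with Eμ-TCL1 replicate 2 alone left out. In ibrutinib Nfkbie was 18.9, 17.9, 20.4 and 31.7 in the mutant and 25.5, 93.0 and 41.3 in Eμ-TCL1. Only the B-cell-poor Eμ-TCL1 library fell within the mutant range, and the log2 change was -1.06 (SE 0.43, adjusted p = 0.396), or -1.25 (SE 0.49, adjusted p = 0.411) in the B-cell-rich libraries. The summed B-cell markers also differed between the genotypes in these B-cell-rich ibrutinib libraries, at 1695 and 1456 in the mutant and 3804 and 2884 in Eμ-TCL1. Within the 4 mutant libraries in ibrutinib, Nfkbie was between 17.9 and 31.7 and the B-cell sum between 70.2 and 1695. In the mutant DMSO libraries Nfkbie was 41.1 and 38.6 at sums of 290 and 286, and 242 to 359 at sums of 3822 to 4771. What part the B-cell sums have in these levels was not tested.

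**Figure D2:**
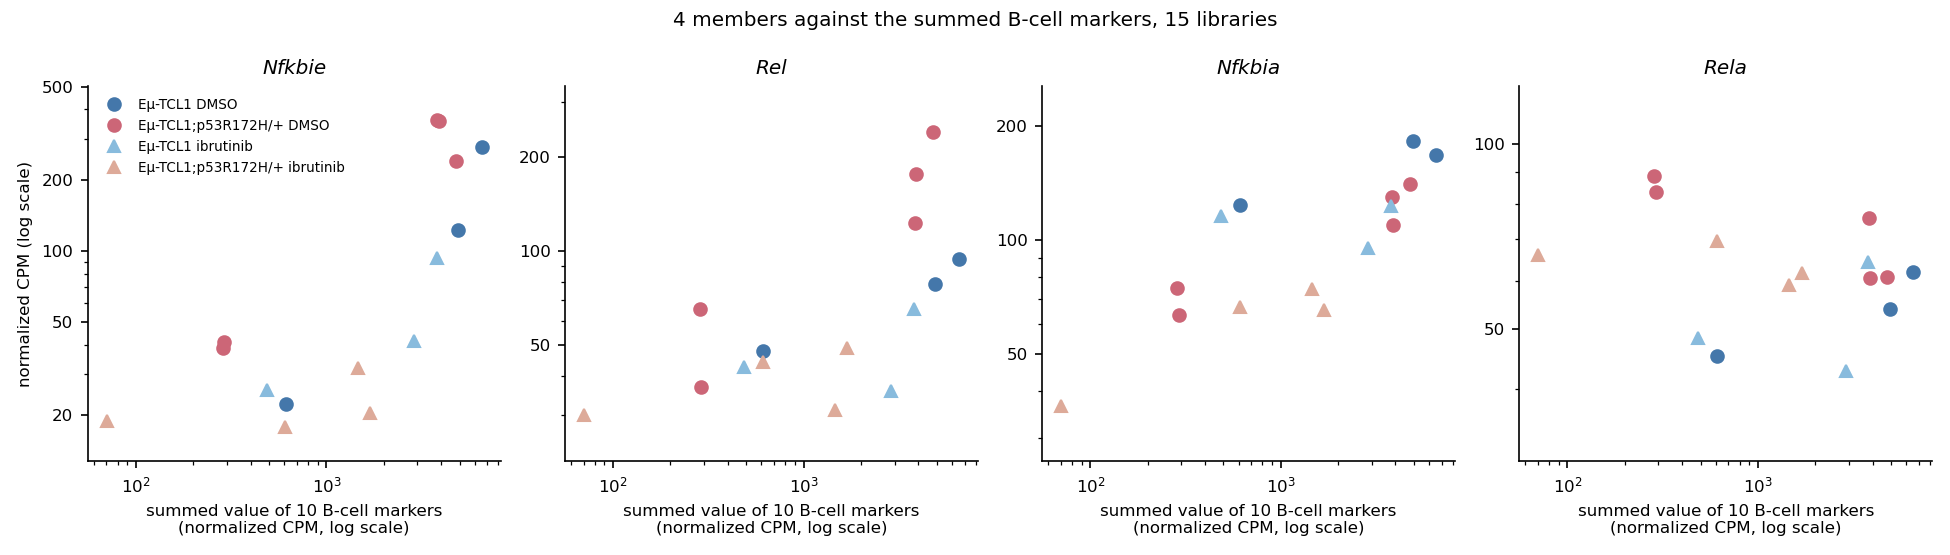
Normalized CPM of Nfkbie, Rel, Nfkbia and Rela (log axes) against the summed value of 10 B-cell markers in each of the 15 libraries; circles are DMSO, triangles ibrutinib, and colours the genotypes. In DMSO, Nfkbie was at most 41.1 in the 3 libraries with sums of 612 or less and at least 122 in the others, whereas Rela was highest in mutant libraries with sums of 286 and 290.

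Nfkbiz (chr16:55811375-55838899, minus strand) encodes IκBζ, a nuclear protein that works with NF-κB on a subset of its targets. It was 159, 142, 98.2, 178 and 97.9 in Eμ-TCL1;p53R172H/+ and 66.7, 89.4 and 70.4 in Eμ-TCL1 in DMSO, and each mutant library lay above each Eμ-TCL1 library. Among all genes of the table, 3.52% had groups that did not overlap with the mutant higher. The log2 change was 0.80 (SE 0.26, adjusted p = 0.523) and the exact permutation test over 56 splits gave p = 0.0357. It was 0.59 (SE 0.33, adjusted p = 0.447) in the B-cell-rich libraries. In ibrutinib the values were 118, 56.3, 54.5 and 43.7 in the mutant and 59.1, 47.4 and 44.7 in Eμ-TCL1, with the highest value in the mutant library with the lowest B-cell sum.

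Bcl3 (chr7:19808462-19822770, minus strand), a nuclear IκB-like protein that binds dimers of the processed Nfkb1 and Nfkb2 products, had low values throughout. It was 5.7, 7.3, 8.3, 23.2 and 11.8 in Eμ-TCL1;p53R172H/+ and 7.4, 26.9 and 29.1 in Eμ-TCL1 in DMSO, and 1.4, 6.4, 6.5 and 12.9 against 7.3, 21.7 and 13.7 in ibrutinib. Its log2 changes of -0.80 (SE 0.55, adjusted p = 0.651) and -1.10 (SE 0.62, adjusted p = 0.513) had wide errors, and its exons share 161 bases with Gm16175 on the opposite strand. In the B-cell-rich libraries of both tables the mutant values all lay below the Eμ-TCL1 values, as in 16.2% of all genes in DMSO and 23.4% in ibrutinib. The log2 changes there were -1.03 (SE 0.45, adjusted p = 0.342) and -0.84 (SE 0.44, adjusted p = 0.488). In ibrutinib the B-cell and T-cell sums of these libraries differed between the genotypes, and their part was not tested.

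Tnfaip3 (chr10:19000910-19015657, minus strand) encodes A20, a ubiquitin-editing enzyme that shuts off signaling upstream of the IκB kinase. It was 91.2, 101, 177, 222 and 194 in the mutant and 72.3, 221 and 103 in Eμ-TCL1 in DMSO, with a log2 change of 0.32 (SE 0.44, adjusted p = 0.804). In ibrutinib it was 109, 155, 98.8 and 98.0 in the mutant and 53.7, 189 and 79.9 in Eμ-TCL1. There the log2 change was 0.27 (SE 0.41, adjusted p = 0.782) over all libraries and -0.32 (SE 0.47, adjusted p = 0.796) in the B-cell-rich ones, of opposite sign.

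In DMSO several members sorted the libraries by their B-cell sums. For Nfkb1, Nfkb2, Rel, Relb, Nfkbie, Bcl3 and Tnfaip3, each B-cell-rich library was above each B-cell-poor library, as in 12% of all genes, whereas for Rela, Nfkbia and Nfkbiz the ranges overlapped. In ibrutinib this held for Relb alone of the 10 members, and for 4.89% of all genes. Over all libraries the genotypes did not overlap for 1 member with the mutant higher (Nfkbiz, against 3.52% of all genes) and 0 with the mutant lower (against 2.93%) in DMSO. In ibrutinib they did not overlap for 0 with the mutant higher (against 6.68%) and 2 with the mutant lower (Nfkb1 and Nfkbia, against 5.97%). Counted over the B-cell-rich libraries, 3 members did not overlap with the mutant higher in DMSO (Rel, Relb and Nfkbiz, against 16.5% of all genes) and 2 with the mutant lower (Nfkbia and Bcl3, against 16.2%). In ibrutinib none did with the mutant higher, against 19.3% of all genes, and 5 did with the mutant lower (Nfkb1, Nfkb2, Nfkbia, Nfkbie and Bcl3, against 23.4%). The B-cell and T-cell sums of these ibrutinib libraries differed between the genotypes, and their part in this count was not tested.

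**Figure D3:**
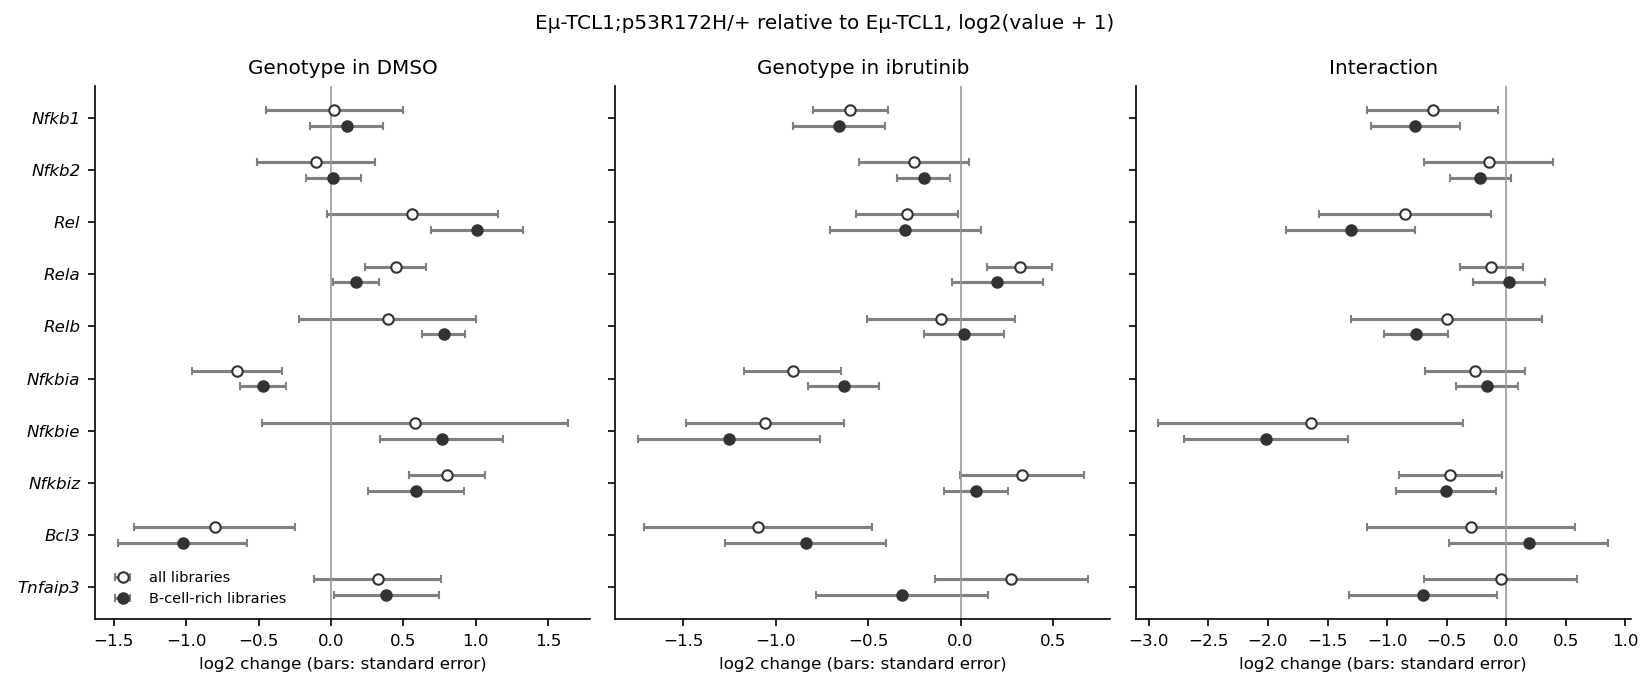
Log2 change of each member in Eμ-TCL1;p53R172H/+ relative to Eμ-TCL1 in DMSO and in ibrutinib, and the interaction (the change in ibrutinib minus the change in DMSO), on the log2(value + 1) scale; bars are standard errors, open points all libraries and filled points the B-cell-rich ones. Nfkbie was at 0.58 in DMSO and at -1.06 in ibrutinib over all libraries, and no member passed an adjusted p of 0.05 in any of the 3 panels.

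Whether the genotype change differed with treatment was asked with an interaction term over all 15 libraries, in which a constant scaling difference between the tables cancels. The libraries were fitted as separate, although same-numbered libraries of a genotype may share a mouse. No member passed (0 of 10, beside 0% of 15869 genes), and none had an unadjusted p under 0.05, beside 0.176% of genes with a higher and 0.347% with a lower term. The term was below 0 for all 10 members, beside 59.1% of genes, but with quantile normalization it was above 0 for Nfkb2, Rela and Tnfaip3. Its median was -0.38 over the members and -0.07 over all genes. The most negative terms were those of Nfkbie (-1.64, SE 1.28, adjusted p = 1), Rel (-0.85, SE 0.72, adjusted p = 1) and Nfkb1 (-0.62, SE 0.55, adjusted p = 1). With Eμ-TCL1 DMSO replicate 2 left out they were -0.65, -0.57 and -0.21. In the 9 B-cell-rich libraries 8 of 10 terms were below 0, beside 53.1% of genes, and again 0 of 10 passed, beside 0%. The term of Nfkbie was then -2.02 (SE 0.69, adjusted p = 0.572), that of Rel -1.31 (SE 0.54, adjusted p = 0.717) and that of Relb -0.76 (SE 0.27, adjusted p = 0.602). These 3 had an unadjusted p under 0.05, as did 6.83% of all genes. The B-cell sums of the mutant B-cell-rich libraries were 3822 to 4771 in DMSO and 1456 to 1695 in ibrutinib. Those of the Eμ-TCL1 ones were 4918 to 6536 and 2884 to 3804, and the part of these sums in the terms was not tested. With a replicate block over all 15 libraries, described at the end, only Relb had an unadjusted limma p under 0.05. Its term was then -0.70 (SE 0.25, unadjusted p = 0.0267, adjusted p = 0.871). Of all genes, 5.05% had an unadjusted p under 0.05 in that fit.

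Levels in DMSO and ibrutinib were set side by side within each genotype but not tested, because the tables were scaled separately. In Eμ-TCL1;p53R172H/+ the mean of Nfkbie was 207 ± 160 (SD, n = 5) in DMSO and 22.2 ± 6.40 (SD, n = 4) in ibrutinib, a ratio of 9.32, and in Eμ-TCL1 it was 141 ± 129 (SD, n = 3) and 53.3 ± 35.3 (SD, n = 3), a ratio of 2.64. The Nfkbie ranges in DMSO and ibrutinib were 38.6 to 359 and 17.9 to 31.7 in the mutant, and 22.4 to 278 and 25.5 to 93.0 in Eμ-TCL1. The lowest value of each range was that of a B-cell-poor library. Eμ-TCL1 replicates 3 and 4 had 278 and 122 in DMSO and 93.0 and 41.3 in ibrutinib. Only 0.227% of genes in the mutant and 0.939% in Eμ-TCL1 had as low a log2 difference, ibrutinib minus DMSO, as Nfkbie, where the median of all genes was -0.34 and -0.23. Over the B-cell-rich libraries the ratios of Nfkbie were 12.2 and 2.98.

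In the mutant Rel and Nfkb1 had the next highest ratios. The ratio of DMSO to ibrutinib for Rel was 3.34 in the mutant and 1.54 in Eμ-TCL1, and for Nfkb1 it was 2.75 and 1.77. As low a log2 difference as that of Rel was seen in 2.07% of genes in the mutant and 16.4% in Eμ-TCL1. In the B-cell-rich libraries the ratios were 4.51 and 1.71 for Rel and 3.38 and 2.01 for Nfkb1, where Nfkbiz had 2.54 and 1.74. Rela had the smallest ratios, 1.15 and 1.04, which lay under the median of all genes in each genotype. The B-cell sums of the B-cell-rich libraries were also lower in ibrutinib, at 1456 to 1695 after 3822 to 4771 in the mutant and 2884 to 3804 after 4918 to 6536 in Eμ-TCL1. The T-cell sums of the mutant ones were 587 and 742 in ibrutinib and 210 to 247 in DMSO. What part these shifts have in the ratios was not tested.

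**Figure D4:**
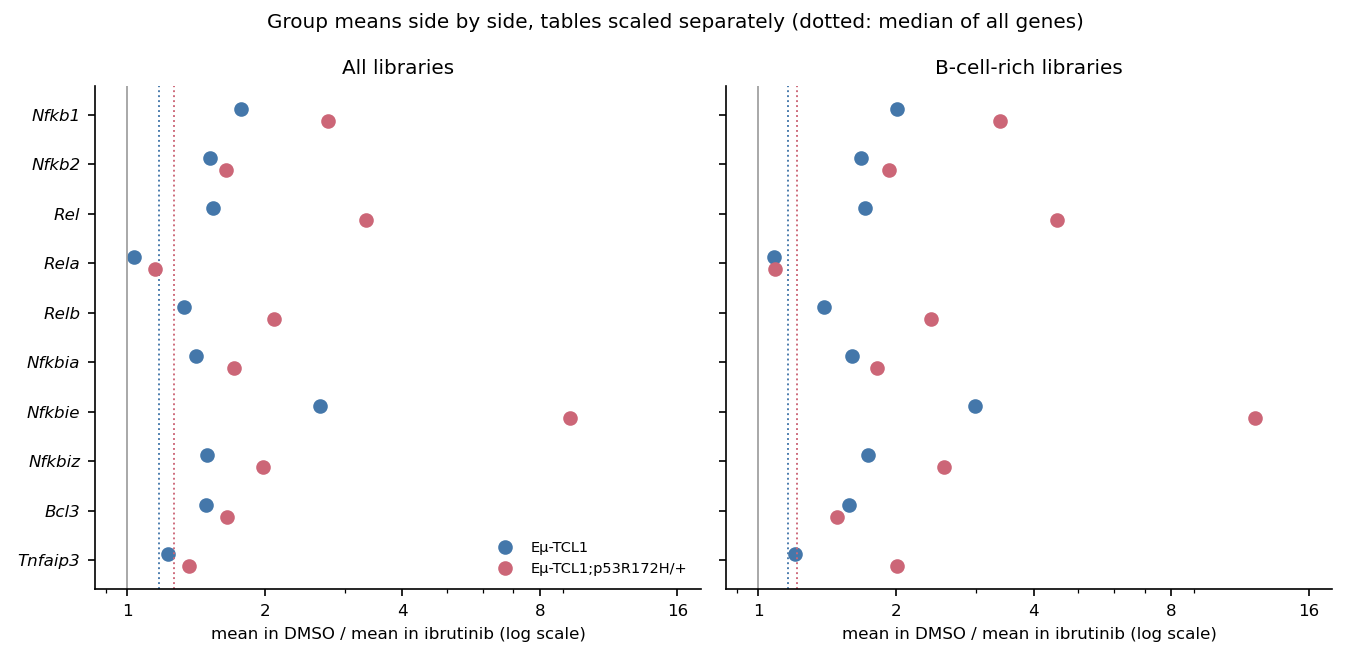
Ratio of the mean in DMSO to the mean in ibrutinib (log axis) for each member in Eμ-TCL1 (blue) and Eμ-TCL1;p53R172H/+ (red), over all libraries and over the B-cell-rich ones; dotted lines are the median difference of all genes on the log2(value + 1) scale, drawn as a ratio. Nfkbie stands farthest right, at 9.32 and 2.64 over all libraries, and Rela is nearest to 1.

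Per kilobase of annotated exon (CPM per kb, GENCODE M21 exon union, B-cell-rich libraries), the members changed places between the groups, Nfkbie and Rela each by up to 7 ranks. The union joins the exons of all annotated transcripts of a gene, 12061 bases for Nfkb1 and 1610 for Nfkbia. Ranks between genes depend on this length, and no other length was tried. In DMSO Nfkbie was the highest member in Eμ-TCL1;p53R172H/+, at 105 CPM per kb (79.3 to 118, n = 3), next to Nfkbia at 78.8 (68.0 to 87.6), and their ranges overlapped. In Eμ-TCL1 the order was the opposite, with Nfkbia at 109 (104 to 114, n = 2) above Nfkbie at 65.7 (40.1 to 91.2), and these ranges did not overlap. In ibrutinib Nfkbia led in both genotypes, at 43.4 CPM per kb (40.7 to 46.0, n = 2) in the mutant and 68.0 (59.3 to 76.6, n = 2) in Eμ-TCL1. Nfkbie ranked 2 in Eμ-TCL1, at 22.1 (13.6 to 30.5), and 8 in the mutant, at 8.56 (6.70 to 10.4), a range that overlapped those of Nfkb1 and Nfkbiz. Rela ranked 9 in mutant DMSO libraries, at 21.4 (19.7 to 24.7), and 2 in mutant ibrutinib libraries, at 19.7 (19.2 to 20.1). Of the subunits in mutant DMSO libraries, Nfkb1 was highest at 35.4 (32.2 to 37.8, n = 3), above the ranges of Relb, Nfkb2 and Rela. Relb, Nfkb2, Rel and Rela had means of 28.1, 24.2, 24.2 and 21.4 CPM per kb with neighbouring ranges that overlapped, apart from a gap between 24.7 for Rela and 25.1 for Relb. Bcl3 was the lowest in 3 of the 4 groups and Rel in ibrutinib-treated Eμ-TCL1 cells, at 6.76.

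For each member the genes with the most similar pattern over the 15 libraries were found by Pearson's r of log2(value + 1), centred within each table, among 10119 genes with a mean of at least 5 in both tables. These correlations share the libraries, and with them the B-cell content, and are given as a description. Nfkb1 and Nfkbie were each other's likest gene (r = 0.979), and Tor3a came second for both (r = 0.968 and 0.977). Nfkbia was most like Fcrl5 and Ifi30 (r = 0.968 and 0.951), Nfkb2 most like Il10 and Gpr55 (r = 0.930 and 0.927), and Bcl3 most like Kynu and Trim7 (r = 0.938 and 0.917). Relb was most like Sept11 and Scd1 (r = 0.967 and 0.965), and Rela most like Rhbdd2 and Fbxl12 (r = 0.941 for both). The gene most like Rel is listed without a symbol (ENSMUSG00000093470, r = 0.971), followed by Gm12355 (r = 0.913). The likest genes of Nfkbiz (Ubash3b, r = 0.894) and Tnfaip3 (Atxn1, r = 0.888, and Tgfbr2, r = 0.874) were less close.

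The rest of the pathway was described from lists of 33 receptors and signaling genes that feed NF-κB, 16 other inhibitors and 30 target genes. None of their genes passed an adjusted p of 0.05 in DMSO or in ibrutinib, beside 0.0121% and 0% of all genes. In DMSO the medians of the log2 changes were -0.04 for the 33 measured input genes, -0.06 for the 16 inhibitors and -0.11 for the 28 measured targets, beside 0.04 over all genes. In ibrutinib they were -0.13, -0.14 and -0.41, beside -0.05. Over the B-cell-rich libraries the median of the targets was above 0 in both tables, at 0.08 in DMSO and 0.22 in ibrutinib. At an unadjusted p under 0.05, 2 of 33 input genes were higher and 1 lower in DMSO, and 1 of 32 was higher and 5 lower in ibrutinib. For the inhibitors these counts were 0 and 0 in DMSO and 0 and 1 in ibrutinib, and for the targets 2 and 0 in DMSO and 2 and 1 in ibrutinib. The shares of all genes were 3.52% higher and 4.65% lower in DMSO and 5.69% higher and 6.32% lower in ibrutinib.

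Among the inputs, Traf6, a ubiquitin ligase of the Toll-like receptor arm, was 79.9 ± 10.5 (SD, n = 5) in Eμ-TCL1;p53R172H/+ and 51.5 ± 5.29 (SD, n = 3) in Eμ-TCL1 in DMSO (log2 change 0.62, adjusted p = 0.493). Irak4, a kinase of the same arm, was 34.9 ± 7.11 and 52.1 ± 3.28 (adjusted p = 0.558), and Malt1, the protease of the antigen-receptor arm, was 296 ± 65.6 and 175 ± 71.7 (adjusted p = 0.594). In ibrutinib Tlr7, a receptor for single-stranded RNA, was 9.50 ± 2.54 (SD, n = 4) in the mutant and 29.9 ± 4.10 (SD, n = 3) in Eμ-TCL1, with a log2 change of -1.58 (SE 0.25, adjusted p = 0.165) and of -1.54 in the B-cell-rich libraries. Irak4 and Traf3, which restrains the noncanonical arm, had log2 changes of -0.77 and -0.47 there (adjusted p = 0.252 and 0.343). Of the inhibitors, Nfkbib, Commd1 and Otulin had the lowest p in DMSO (log2 changes of 0.68, -0.73 and 0.53, adjusted p = 0.645 for each) and Commd1, Nfkbid and Rnf11 in ibrutinib (-0.82, -0.35 and -0.46, adjusted p = 0.313, 0.496 and 0.529). In the B-cell-rich libraries these changes were 0.66, -0.48 and 0.20 in DMSO and -0.49, -0.19 and -0.02 in ibrutinib.

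Among the targets, Myc, a growth-promoting transcription factor, was 176 ± 59.7 (SD, n = 5) in Eμ-TCL1;p53R172H/+ and 56.2 ± 33.8 (SD, n = 3) in Eμ-TCL1 in DMSO. Its ranges, 92.2 to 253 and 17.2 to 77.9, did not overlap, as in 3.52% of all genes with the mutant higher. The log2 change of Myc was 1.82 (SE 0.53, adjusted p = 0.473), or 1.43 in the B-cell-rich libraries. Icam1, an adhesion molecule, and Ebi3, a cytokine subunit, had log2 changes of 0.88 and -2.09 (adjusted p = 0.608 and 0.623), and of 0.40 and -1.27 in the B-cell-rich libraries. In ibrutinib Ebi3 was 3.35 ± 2.06 (SD, n = 4) in the mutant and 24.2 ± 11.7 (SD, n = 3) in Eμ-TCL1, with a log2 change of -2.65 (SE 0.59, adjusted p = 0.222). Traf1 and Ccr7 had log2 changes of 1.36 and 1.25 there (adjusted p = 0.246 and 0.321), and of 0.70 and 0.95 in the B-cell-rich libraries.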

How the data were processed

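RNA-seq values of cells from leukemic spleens, which the authors describe as malignant B-cells, were taken from 2 deposited tables, 1 for each treatment. The submitters' processing notes name TopHat2 2.0.12, SAMtools 0.1.19, HTSeq and edgeR, and per the methods the authors summarized reads by gene with HTSeq on GENCODE M2 (GRCm38), left out genes of low CPM and applied edgeR normalization. The deposited values are a normalized signal in CPM (reads scaled to a common library size), with separate factors for the tables and a rounding step of 0.1, and column sums were 855661 to 1243999 in DMSO and 756625 to 1359650 in ibrutinib. A read is worth less than the rounding step, so the depth is unknown, no counting error is given and no test on read counts was run.

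Within each table, log2(value + 1) of all genes was compared between genotypes by limma 3.58.1 under R 4.3.3, using eBayes with trend, Benjamini-Hochberg adjusted, with 0.05 as the threshold, in place of the count test of the methods. The interaction was fitted over the 15869 genes in both tables. The fits were tested on simulated data. Exact permutation tests, two-sided, were run on the values of each member. B-cell-poor libraries had a summed B-cell marker value under 0.5 of the median of their table. Positions and exon lengths came from GENCODE M21 and promoter windows from RefSeq, both on GRCm38. Plots were made in Python 3.11.15 (matplotlib 3.10.9).

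All 10 members were named, and from each pathway list the 3 genes with the lowest p in each table and any past the threshold; for each member the 2 likest genes were named, apart from 1 gene that is not reported here. The members, lists and tests were chosen with earlier results of these data known. Results were recomputed with a pseudocount of 0.1 or 5, with only genes whose mean was 5 or more, with quantile normalization, array quality weights, a replicate block, each library left out in turn, all B-cell-poor libraries left out, and the exact permutation test. All deposited sample columns were used.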

Additional observations from a re-analysis of the deposited data

Results flagged for a closer look

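Nfkbiz was 118.3 in replicate 1 of the ibrutinib-treated Eμ-TCL1;p53R172H/+ libraries and 43.7 to 56.3 in the other 3, a gap to the nearest library that was past Dixon's critical value for 4 samples. Replicate 1 was also the library with the lowest summed B-cell markers (70.2) and the highest summed T-cell markers (1876) of that table, and their part in the value was not tested. This was 1 of 20 sets of libraries looked at (10 genes in each of 2 mutant groups), and chance flags about 1 in 20.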

How the results depend on the processing

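No member passed an adjusted p of 0.05 under any alternative in DMSO, ibrutinib or the interaction, the range over libraries left out in turn being 0 to 0. The exact permutation test, unadjusted, counted 1 member in DMSO, beside 7.53% of all genes, and 2 in ibrutinib, beside 8.1%. Array quality weights called 4 pathway-list genes in DMSO (Pdlim2, Myc, Traf6 and Irak4, of which Pdlim2 was named after its values were seen). These came from lists of 33, 16 and 28 measured genes, and 4.88% of all genes were called with these weights. Of 510 alternative log2 values of the members, 41 changed sign; the cause was not tested. With quantile normalization, Nfkb1 was -0.082 in DMSO, Relb 0.026 in ibrutinib, and Nfkb2, Rela and Tnfaip3 0.042, 0.076 and 0.17 in the interaction. With array quality weights, Nfkb2, Rela and Bcl3 were 0.043, 0.060 and 0.15 in the interaction. Without the B-cell-poor libraries, Nfkb2 was 0.016 in DMSO, Relb 0.020 and Tnfaip3 -0.32 in ibrutinib, and Rela 0.026 and Bcl3 0.19 in the interaction.

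With 1 library left out, the log2 change in DMSO ranged from -0.38 to 0.39 for Nfkb1, from -0.43 to 0.18 for Nfkb2, from -0.41 to 1.37 for Nfkbie and from -0.028 to 0.77 for Tnfaip3. The lowest values of Nfkb1, Nfkbie and Tnfaip3 came without Eμ-TCL1 replicate 2. In ibrutinib it ranged from -0.39 to 0.00073 for Nfkb2, from -0.39 to 0.21 for Relb and from -0.12 to 0.78 for Tnfaip3. The interaction ranged from -0.43 to 0.18 for Nfkb2, from -0.25 to 0.037 for Rela, from -0.67 to 0.30 for Bcl3 and from -0.50 to 0.46 for Tnfaip3; for Nfkbie it ranged from -2.43 to -0.65. For the other members no library turned the direction.

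Replicate numbers were not taken to pair the libraries, since not every pair correlated. Same-numbered libraries of 1 genotype correlated between treatments at r = 0.747 to 0.835 in 5 of 6 pairs but at -0.109 for Eμ-TCL1;p53R172H/+ replicate 3. That replicate had Ddx3y of 0.1 in DMSO and 82.1 in ibrutinib, so its number does not mark 1 mouse. Same-numbered libraries of the 2 genotypes correlated at -0.191 to 0.282. The interaction was thus fitted as if all 15 libraries were separate, although 5 pairs may share a mouse. A replicate block called 0 members, beside 0% of all genes, in all 3 comparisons, and turned only Rela in the interaction, to 0.021. Within each treatment the block joined same-numbered libraries of different genotypes, which cannot come from the same mouse. The blocked fits within a treatment therefore cannot tell whether libraries that share a mouse matter. In the interaction this block also joined the 2 libraries of mutant replicate 3, and a fit that paired only the other 5 was not run. The unknown depth limits statements on low genes such as Bcl3.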
